A study of Mus musculus with 21 samples.

Results

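The circadian clock genes described here are *Per1*, *Per2*, *Per3*, *Cry1*, *Cry2*, *Nr1d1*, *Nr1d2*, *Dbp*, *Npas2* and *Ciart*, 10 of the 56691 genes in a table of mouse heart RNA-seq, chosen by gene symbol. All 10 were found, and all 10 had a mean of at least 0.5 FPKM (reads divided by the gene's length in kb and by the depth of the library, which can be compared between genes), the limit that 13988 genes passed. *Npas2* passed narrowly, at a mean of 0.515 FPKM over all libraries and 0.208 in the untreated hearts, so its higher groups carried it over the limit.

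The study compared the effect of doxorubicin (DOX), an anthracycline used against cancer and toxic to the heart, in mice with and without a tumor. Control hearts (n = 5) came from non-tumor-bearing mice given normal saline, and DOX hearts (n = 5) from non-tumor-bearing mice given doxorubicin by intraperitoneal injection once a week. Tb hearts (n = 6) came from mice bearing a subcutaneous 4T1 tumor and given normal saline, and Tb-DOX hearts (n = 5) from 4T1-bearing mice given doxorubicin. 4T1 is a murine breast cancer line, and it was the single tumor line used. The labels name the 4T-1 line as the source of every library while the paper describes hearts, and 8 cardiomyocyte markers were abundant. Strain, sex and age of the mice and the hour at which the hearts were taken are not given in the sources used here, so for genes with a daily rhythm the hour and the group cannot be told apart.

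The clock runs in almost every cell as a feedback loop of transcription. ARNTL (BMAL1) paired with CLOCK or its paralog NPAS2 binds E-boxes and switches on the *Per*, *Cry*, *Nr1d* and *Dbp* genes. PER and CRY proteins then block that activation, and the nuclear receptors encoded by *Nr1d1* and *Nr1d2* (REV-ERBα and β) repress *Arntl* and *Npas2* through ROR elements. In the heart the loop gives daily rhythms to genes of metabolism and excitability, and genes under E-boxes peak at other hours than *Arntl* does.

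Promoter sequences are shown for 3 members and for *Arntl* because they carry the letters through which these genes are known to be read by one another. Of the 10 members 9 matched a RefSeq promoter window on GRCm38.p6, reaching from 250 bases before to 50 after the transcript start, and *Per1* had 2 windows, which makes 10 windows. Capitals mark the motif searched on both strands: the E-box CACGTG in *Ciart* and *Per1*, the D-box TTANGTAA (the site of DBP, HLF and TEF) in *Per3*, and the ROR element TAGGTCA in *Arntl*.
Ciart, chr3:95882179-95882478, minus strand: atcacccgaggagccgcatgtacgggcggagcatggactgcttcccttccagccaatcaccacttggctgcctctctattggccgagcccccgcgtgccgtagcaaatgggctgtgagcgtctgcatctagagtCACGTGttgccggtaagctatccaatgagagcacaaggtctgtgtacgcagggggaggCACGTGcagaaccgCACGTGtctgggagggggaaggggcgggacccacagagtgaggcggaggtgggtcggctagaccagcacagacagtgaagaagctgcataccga
Per1, chr11:69098699-69098998, plus strand: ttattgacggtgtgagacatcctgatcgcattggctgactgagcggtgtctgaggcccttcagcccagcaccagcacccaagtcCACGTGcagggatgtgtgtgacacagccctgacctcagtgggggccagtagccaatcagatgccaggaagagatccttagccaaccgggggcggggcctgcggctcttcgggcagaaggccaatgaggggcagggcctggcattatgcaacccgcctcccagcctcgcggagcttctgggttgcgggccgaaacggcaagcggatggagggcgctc
Per3, chr4:151044616-151044915, minus strand: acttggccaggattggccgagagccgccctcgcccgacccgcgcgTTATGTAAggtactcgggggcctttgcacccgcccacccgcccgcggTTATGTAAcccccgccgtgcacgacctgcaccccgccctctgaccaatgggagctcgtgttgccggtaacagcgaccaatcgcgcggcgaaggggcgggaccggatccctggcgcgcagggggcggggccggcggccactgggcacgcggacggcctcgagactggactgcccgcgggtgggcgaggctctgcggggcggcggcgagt
Arntl, chr7:113207261-113207560, plus strand: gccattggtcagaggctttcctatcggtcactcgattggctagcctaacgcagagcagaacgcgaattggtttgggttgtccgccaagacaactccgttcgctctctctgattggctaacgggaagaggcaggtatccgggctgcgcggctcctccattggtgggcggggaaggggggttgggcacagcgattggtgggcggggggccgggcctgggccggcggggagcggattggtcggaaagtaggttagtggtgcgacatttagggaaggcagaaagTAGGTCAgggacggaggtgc
The window of *Ciart* holds 3 E-boxes, starting 116, 58 and 44 bases before the transcript start, and those of *Per1* and *Cry1* hold 1 each, 166 and 60 bases before it. Over all 32851 windows 7.15% hold this E-box, and 3 of the 10 member windows do. *Per3* holds 2 D-boxes, a motif found in 2.32% of windows, and *Arntl* holds a ROR element 30 bases after its start, a motif found in 2.61%. The cyclic AMP response element TGACGTCA, found in 1.79%, has no match in a member window, nor has the ROR element. A match is a description of the letters and not a binding site measured here, and the absence of one covers this window only.

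Depth was 13521200 to 18601445 counts per library with a median of 15369001, so that *Dbp*, for example, was read by 107 to 1002 counts and *Npas2* by 5 to 95. Over all tested genes, the median correlation of a library with its own group was 0.887 for Tb-5 and 0.932 for Tb-6, and 0.934 to 0.956 for the other 19, so the calls that involve Tb are followed by their values or counts without these libraries. Within Control, library 3 differed most in counts, with a chi-square per degree of freedom of 91.1 to 104 against the other 4 Control libraries and 5.95 to 10.1 among those. The summed level of 8 cardiomyocyte markers was 17400 to 25880 FPKM in Control (median 17870, with Control-3 alone above 18070), 19450 to 22770 in DOX (median 21240), 15880 to 18360 in Tb (median 17630) and 19270 to 22180 in Tb-DOX (median 21370). That of 6 neutrophil markers was 1.65 to 4.83 FPKM in Control, 8.43 to 84.0 in DOX, 773.6 to 7226 in Tb, where Tb-5 and Tb-6 were highest, and 1177 to 5649 in Tb-DOX. Over 5 erythroid markers it was 251.6 to 1093 FPKM in Control and 526.7 to 974.9 in Tb, against 4.77 to 145.6 in DOX and 2.96 to 39.97 in Tb-DOX. Fibroblast markers (5 genes) summed to 467.8 to 590.9 FPKM in Control and to 297.2 to 432.7 in the other groups, mostly through *Gsn* (mean 353.8 FPKM in Control and 180.7 in DOX), and they did not move together, since *Gsn* and *Col1a1* were lower in DOX (log2 fold change −0.81 and −2.19, adjusted p = 0.0015 and 1.12e-05), *Pdgfra* was higher (0.44, adjusted p = 0.0066), and *Dcn* (0.30, adjusted p = 0.0779) and *Tcf21* (−0.48, adjusted p = 0.0634) did not pass. Endothelial markers (5 genes) summed to 87.05 to 158.7 over all groups. T cell markers (6 genes) stayed at or below 3.67 FPKM except in Tb-5 (11.49) and DOX-4 (67.12), where *Cd3e* alone made up 9.74 and 66.73, and in DOX-4 each of the other 5 was at or below 0.21. Adipocyte markers (6 genes) summed to at most 1.74. Germ cell markers (7 genes) were at 1.98 to 5.95 FPKM in Control, at most 0.38 in DOX, at most 0.19 in Tb and 0 to 6.05 in Tb-DOX. The part of these markers in the results was not tested, and in whole hearts fewer cells of a type cannot be told apart from less RNA per cell.

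In Control hearts the member with the highest level was *Nr1d2*, at 44.3 ± 7.75 FPKM (SD, n = 5), followed by *Dbp* (15.7 ± 4.87), *Per2* (10.6 ± 1.84), *Per1* (9.61 ± 1.61), *Nr1d1* (8.08 ± 2.07), *Per3* (7.57 ± 1.05), *Cry2* (5.13 ± 0.369), *Ciart* (4.77 ± 2.40), *Cry1* (4.74 ± 0.350) and *Npas2* (0.208 ± 0.119). The FPKM ranges of neighbours in this order overlapped except at 3 steps, where every library of *Nr1d2* was above every one of *Dbp*, every one of *Per3* above every one of *Cry2*, and every one of *Cry1* above every one of *Npas2*. Within Control, library 5 had the lowest level of 7 members (*Per1*, *Per2*, *Per3*, *Nr1d1*, *Nr1d2*, *Dbp* and *Ciart*) and the highest of *Arntl* and *Clock*. *Nr1d2* led in every group, but *Dbp*, at rank 2 in Control, was at rank 8 in DOX and 7 in Tb-DOX, while *Per1* was at rank 2 in DOX.

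**Figure D1:**
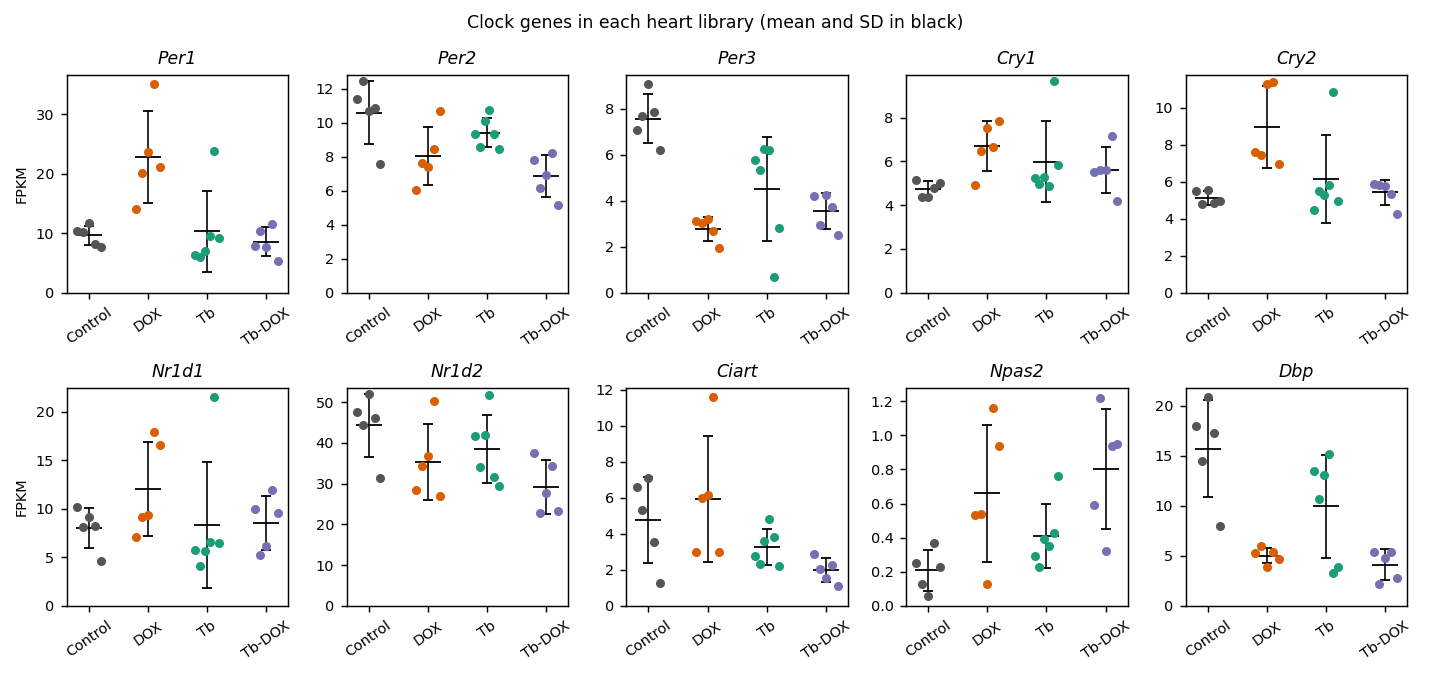
FPKM of the 10 clock genes in each of the 21 heart libraries, 1 point per library in the order of its number, with the group mean as a horizontal bar and the SD as the error bar; each panel has its own axis from 0. The 5 DOX points of *Per1* (13.99 to 35.1) and *Cry2* (6.96 to 11.4) lie above every Control point, those of *Per3* and *Dbp* below every Control point, and 1 Tb point, Tb-5, stands far from the other 5 for *Per1*, *Cry1*, *Cry2* and *Nr1d1*.

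In non-tumor-bearing hearts the clock genes differed with DOX in both directions. *Per1*, *Cry1*, *Cry2* and *Npas2* were higher in DOX than in Control and *Per3* and *Dbp* lower, 6 of 10 members at an adjusted p under 0.05, against 36.3% of all genes tested (edgeR quasi-likelihood test, Benjamini-Hochberg over all tested genes). By direction 4 of 10 rose, against 18.0% of all genes, and 2 of 10 fell, against 18.2%. *Npas2* is among the 4 that rose and passed the expression limit through its higher groups, and without it 5 of 9 members were called, 3 higher and 2 lower. For 4 members the FPKM ranges of both groups did not overlap, which held for 25.2% of all genes. The median log2 fold change of the members was 0.55, beside 0.00 for all genes.

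*Per1*, which encodes a repressor of the loop and is also known as an immediate-early and glucocorticoid-induced gene, was at 10.3, 10.2, 11.6, 8.23 and 7.73 FPKM in Control-1 to Control-5 and at 13.99, 20.1, 23.6, 35.1 and 21.2 in DOX-1 to DOX-5. The 5 DOX libraries were all above the highest Control library, DOX-4 most so. The level was 2.62-fold higher by the fit, with a log2 fold change of 1.39 ± 0.33 (SE, adjusted p = 0.00252). *Cry2*, a cryptochrome and repressor of CLOCK and ARNTL, was at 5.52, 4.81, 5.55, 4.86 and 4.93 FPKM in Control and at 7.60, 7.42, 11.3, 11.4 and 6.96 in DOX. Its groups were apart as well, with DOX-3 and DOX-4 highest, and its log2 fold change stood at 0.93 ± 0.21 (SE, adjusted p = 0.0018). *Cry1*, the other cryptochrome, was at 4.38 to 5.13 FPKM in Control and at 4.93, 6.49, 7.53, 6.66 and 7.87 in DOX, where DOX-1 fell inside the Control range. Its log2 fold change was 0.63 ± 0.19 (SE, adjusted p = 0.0118).

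The other *Per* genes did not move with *Per1*. *Per3*, a paralog that is dispensable for the loop, was at 7.05, 7.69, 9.06, 7.83 and 6.21 FPKM in Control and at 3.13, 3.02, 3.18, 2.66 and 1.92 in DOX. Every DOX library was below every Control library, and its log2 fold change stood at −1.30 ± 0.34 (SE, adjusted p = 0.00514). *Per2*, a core repressor, was at 11.4, 12.5, 10.7, 10.9 and 7.54 FPKM in Control and at 6.02, 7.63, 7.40, 8.43 and 10.7 in DOX. The groups overlapped through Control-5 and DOX-5, and the log2 fold change of −0.26 ± 0.15 (SE, adjusted p = 0.19) did not pass the test, although with library totals in place of TMM scaling it was −0.40 (adjusted p = 0.0414).

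*Dbp*, the gene of an E-box-driven factor that binds D-boxes, had the largest fall of the 10. It was at 17.9, 14.4, 20.8, 17.2 and 8 FPKM in Control and at 5.24, 5.94, 3.91, 5.38 and 4.65 in DOX. Even Control-5, the lowest of its group, was above every DOX library, and its log2 fold change stood at −1.49 ± 0.35 (SE, adjusted p = 0.00257). *Npas2*, which can stand in for *Clock* as the partner of ARNTL, was at 0.25, 0.13, 0.06, 0.37 and 0.23 FPKM in Control and at 0.53, 0.54, 0.13, 1.16 and 0.94 in DOX. All DOX libraries but DOX-3 were above the Control range. Its log2 fold change was 1.81 ± 0.50 (SE, adjusted p = 0.008), on 5 to 24 counts per Control library and 9 to 79 per DOX library.

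An exact permutation test of single genes, two-sided and run on log2(FPKM + 0.1), gave p = 0.00794 for *Per1*, *Cry2*, *Per3* and *Dbp*, the smallest that its 252 arrangements allow. The exact p was 0.0238 for *Cry1* and 0.0714 for *Npas2*. All 6 calls held when any 1 of the 21 libraries was left out.

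The nuclear receptors and *Ciart* did not pass. *Nr1d1*, the REV-ERBα gene, was at 10.2, 8.12, 9.16, 8.29 and 4.67 FPKM in Control and at 7.11, 9.22, 9.33, 17.9 and 16.6 in DOX, where DOX-4 and DOX-5 were the high libraries, and its log2 fold change was 0.72 ± 0.39 (SE, adjusted p = 0.154). Without Tb-5, which is in neither group but enters the shared estimate of the spread, it was 0.73 (adjusted p = 0.0241), and 7 members were called, against 42.5% of all genes. Fitted on Control and DOX alone, *Nr1d1* was at 0.72 (adjusted p = 0.0454). *Nr1d2*, the REV-ERBβ gene, was at 31.35 to 51.9 FPKM in Control and 26.9 to 50.2 in DOX (log2 fold change −0.18 ± 0.18, SE, adjusted p = 0.45). *Ciart*, whose product (CHRONO) represses CLOCK and ARNTL, ranged from 1.25 to 7.13 FPKM in Control and from 2.98 to 11.6 in DOX (0.47 ± 0.39, SE, adjusted p = 0.361).

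**Figure D2:**
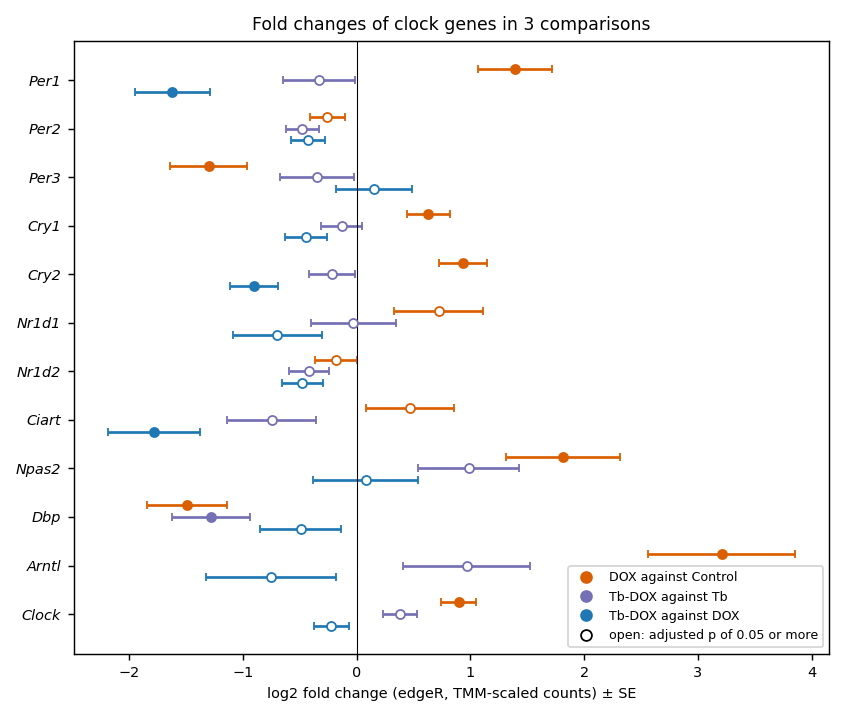
log2 fold change (x axis, edgeR on TMM-scaled counts) with its SE for the 10 clock genes, *Arntl* and *Clock* in 3 comparisons; filled points have an adjusted p under 0.05 and open points do not. In DOX against Control *Arntl* lies farthest right at 3.21 and *Dbp* farthest left at −1.49, and in Tb-DOX against DOX the filled points are *Per1*, *Cry2* and *Ciart*, all to the left of 0.

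Of 3 tested genes of the activators and ROR receptors described here 2, *Arntl* and *Clock*, rose in DOX and none fell, where 36.3% of all genes were called. *Arntl*, at a mean of 0.324 FPKM in Control and 2.71 in DOX, was under the expression limit of 0.5 in Control and passed it through its higher groups, and without it 1 of 2 rose. *Arntl* (BMAL1) was at 0.14, 0.27, 0.48, 0.10 and 0.63 FPKM in Control and at 1.70, 2.08, 2.62, 4.53 and 2.61 in DOX, with no overlap and a log2 fold change of 3.21 ± 0.65 (SE, adjusted p = 0.000704). *Clock*, the gene of its partner, was at 2.88 to 4.11 FPKM in Control and 5.14 to 6 in DOX, again with no overlap (0.90 ± 0.16, SE, adjusted p = 0.000207). *Rora*, of the ROR receptors that activate *Arntl*, had a log2 fold change of 0.18 (adjusted p = 0.345).

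Among 5 factors related to *Dbp* or binding E-boxes, 2 fell and none rose, a share of calls near the 36.3% of all genes. *Hlf*, which like *Dbp* encodes a PAR bZIP factor acting on D-boxes, was at 6.24 to 8.26 FPKM in Control and 2.63 to 4.88 in DOX, without overlap (log2 fold change −0.84 ± 0.27, SE, adjusted p = 0.0205), but its relative *Tef* was at −0.12 (adjusted p = 0.703). *Bhlhe41* (DEC2), a repressor at E-boxes, fell (−0.77 ± 0.26, SE, adjusted p = 0.0264), while *Bhlhe40* and *Nfil3*, a repressor at D-boxes, were both at 0.45 with adjusted p of 0.498 and 0.402. Of 8 tested clock kinases, ubiquitin ligases and cofactors 1 rose and 1 fell, again beside 36.3% of all genes. *Csnk1e*, a kinase of PER proteins, rose by 0.45 on the log2 scale (adjusted p = 0.00155), and *Btrc*, a ligase subunit for PER proteins, fell by 0.57 (adjusted p = 0.00478). Without Tb-5, 3 of the 8 rose and 1 fell, where 42.5% of all genes were called, with *Csnk1d* and *Fbxw11* added. *Arntl2*, *Rorb* and *Fbxl21* were below the expression limit.

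Of 19 clock output genes 5 rose and 5 fell in DOX, where 18.0% of all genes rose and 18.2% fell. The 4 with the smallest adjusted p were *Klf9*, a transcription factor also induced by glucocorticoids (log2 fold change 1.01 ± 0.17, SE, adjusted p = 0.000117), *Wee1*, a cell cycle kinase under E-boxes (−1.09 ± 0.18, adjusted p = 0.00015), *Lonrf3* (2.57 ± 0.50, adjusted p = 0.000504) and *Nampt*, an enzyme of NAD synthesis (−0.61 ± 0.13, adjusted p = 0.00133). *Lonrf3*, at a mean of 0.198 FPKM in Control, 0.25 in Tb, 1.09 in DOX and 0.714 in Tb-DOX, passed the expression limit through its DOX-treated groups, and without it 4 of 18 rose and 5 fell. Of 10 glucocorticoid-responsive genes 3 rose and 1 fell, a share of calls near the 36.3% of all genes. *Klf9*, *Fkbp5*, *Tsc22d3* and *Sgk1* stand in both lists and are counted in each. Those higher were *Klf9*, *Fkbp5* (1.49 ± 0.45, adjusted p = 0.0134) and *Zbtb16* (0.96 ± 0.36, adjusted p = 0.0401), and *Tsc22d3* was lower (−0.59 ± 0.17, adjusted p = 0.0109). Without Tb-5, 6 of these 10 rose and 1 fell, where 42.5% of all genes were called.

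In tumor-bearing hearts *Dbp* was the single member called between Tb-DOX and Tb, 1 of 10 against 4.72% of all genes, and it fell. It was at 3.29 FPKM in the lowest Tb library, 11.9 at the median and 15.2 in the highest, and at 5.40, 2.20, 4.79, 5.41 and 2.83 in Tb-DOX-1 to Tb-DOX-5. Tb-1 to Tb-4, at 10.6 to 15.2, were above every Tb-DOX library, but Tb-5 (3.29) and Tb-6 (3.89) were inside the Tb-DOX range. Its log2 fold change was −1.29 ± 0.34 (SE, adjusted p = 0.035), and with any 1 of Tb-1 to Tb-4 or of the 5 Tb-DOX libraries left out it was −1.41 to −1.13 with adjusted p of 0.0510 to 0.0956. Fitted on these 2 groups alone, *Dbp* was no longer called (adjusted p = 0.105) and *Per2* was (−0.48, adjusted p = 0.0487).

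*Per2* was the 1 member whose FPKM ranges did not overlap in this comparison, as for 4.30% of all genes. It was at 8.46, 9.31 and 10.7 FPKM in the lowest, median and highest Tb library and at 7.82, 6.16, 6.93, 8.21 and 5.13 in Tb-DOX. The exact permutation test gave p = 0.00216, the smallest of 462 arrangements, but over all genes the log2 fold change of −0.48 ± 0.15 (SE) had an adjusted p of 0.0613. Without Tb-6 it was −0.53 (adjusted p = 0.0363), without Control-5 −0.48 (adjusted p = 0.0473) and without DOX-5 −0.48 (adjusted p = 0.0392).

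The remaining 8 members overlapped between Tb and Tb-DOX. *Per1* was at 5.95, 8.07 and 23.8 FPKM in the lowest, median and highest Tb library, the last being Tb-5, and at 7.90, 10.3, 7.58, 11.6 and 5.34 in Tb-DOX (log2 fold change −0.33 ± 0.31, SE, adjusted p = 0.598). *Cry2* was at 4.46, 5.38 and 10.9 FPKM in Tb, again with Tb-5 highest, and at 4.27 to 5.89 in Tb-DOX (−0.22 ± 0.20, adjusted p = 0.587). Without Tb-5 the direction turned for *Per1* (0.18) and *Cry2* (0.08), and for *Cry1* (0.11) and *Nr1d1* (0.60), and none of these 4 passed. *Dbp* was then still the 1 member called (−1.45, adjusted p = 0.00759), against 5.90% of all genes. *Per3* was at 0.66, 5.54 and 6.23 FPKM in Tb and at 2.49 to 4.26 in Tb-DOX (−0.35 ± 0.32, adjusted p = 0.588). *Npas2* was at 0.23, 0.37 and 0.76 FPKM in Tb and at 0.59, 1.22, 0.32, 0.94 and 0.95 in Tb-DOX (0.98 ± 0.45, adjusted p = 0.213). *Ciart* had a log2 fold change of −0.75 (adjusted p = 0.29), *Nr1d2* of −0.42 (adjusted p = 0.177), *Nr1d1* of −0.03 (adjusted p = 0.974) and *Cry1* of −0.13 (adjusted p = 0.725).

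With both Tb-5 and Tb-6 left out, a choice made after their correlations were seen, 4 members were called in Tb-DOX against Tb, against 10.3% of all genes, and all 4 were lower. They were *Dbp* (log2 fold change −1.68, adjusted p = 0.000155), *Per3* (−0.74, adjusted p = 0.00209), *Per2* (−0.51, adjusted p = 0.0396) and *Nr1d2* (−0.55, adjusted p = 0.049). *Arntl* was then at 2.59 (adjusted p = 0.000679) and *Clock* at 0.67 (adjusted p = 0.000444), against 0.97 (adjusted p = 0.341) and 0.38 (adjusted p = 0.146) with all libraries. *Arntl* was at 0.32, 0.48, 0.22 and 0.19 FPKM in Tb-1 to Tb-4, all under the expression limit, which it then passed through the DOX-treated groups. Without Tb-5 alone they were at 1.74 (adjusted p = 0.0352) and 0.50 (adjusted p = 0.032).

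Of the other clock genes described here *Bhlhe41* alone was called between Tb-DOX and Tb (−0.90 ± 0.25, SE, adjusted p = 0.0431), and that call held in 8 of the 21 fits with 1 library left out. Without Tb-5 *Bhlhe41* was at −0.59 (adjusted p = 0.0756) and *Csnk1e* at 0.30 (adjusted p = 0.0482). With both Tb-5 and Tb-6 left out *Bhlhe41* was at −0.76 (adjusted p = 0.00307), *Hlf* at −0.71 (adjusted p = 0.00984), *Tef* at −0.66 (adjusted p = 0.00603) and *Csnk1e* at 0.34 (adjusted p = 0.0236). Of the 19 output genes 4 fell and none rose, where 4.72% of all genes were called. They were *Pdk4*, a kinase that restrains glucose oxidation (−2.95 ± 0.51, adjusted p = 0.00277), *Coq10b*, of coenzyme Q function (−1.14 ± 0.20, adjusted p = 0.00346), *Ucp3*, a mitochondrial carrier (−2.43 ± 0.54, adjusted p = 0.0144), and *Wee1* (−0.74 ± 0.18, adjusted p = 0.0201). Of the 10 glucocorticoid-responsive genes 1, *Angptl4*, an inhibitor of lipoprotein lipase, was called and fell (−2.46 ± 0.58, adjusted p = 0.018). Its mean in Tb-DOX, 0.338 FPKM, was under the expression limit. Without Tb-5 and Tb-6, 8 output genes fell and 1, *Lonrf3*, whose mean in Tb was under the expression limit, rose, where 10.3% of all genes were called, with the 4 above still among those that fell (*Pdk4* −3.07, *Coq10b* −1.07, *Ucp3* −2.93 and *Wee1* −0.91), and *Angptl4* was at −2.42 (adjusted p = 0.00495).

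**Figure D3:**
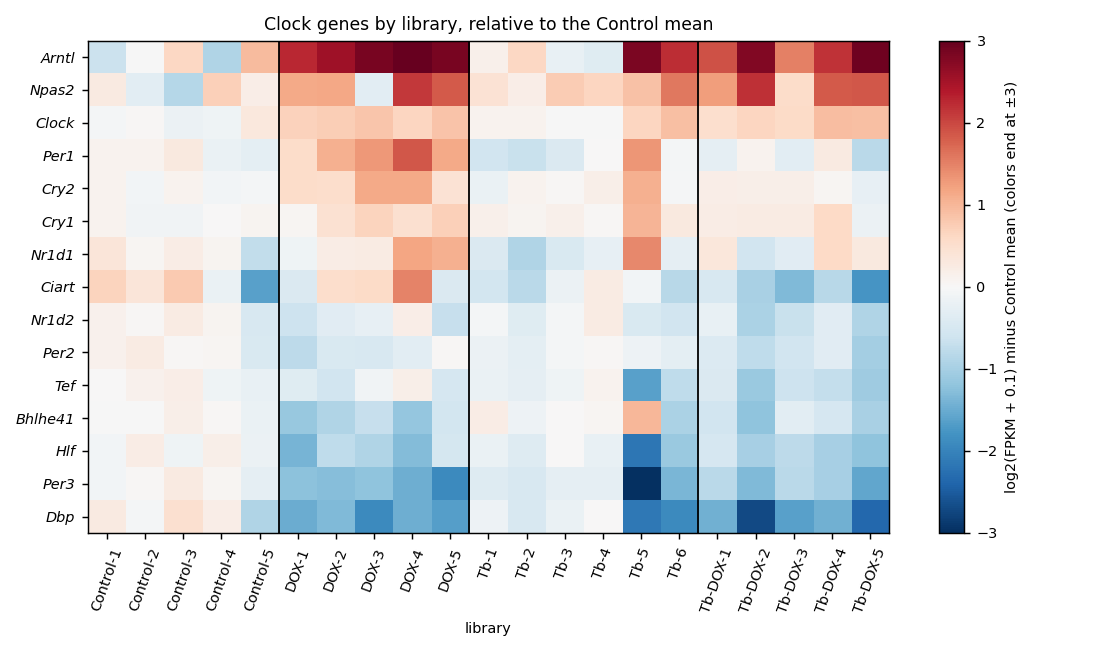
Level of the 10 members and 5 other clock genes in each library as log2(FPKM + 0.1) minus the mean of the Control libraries, with red above and blue below it and colors ending at 3 in both directions. *Dbp*, *Per3* and *Hlf* are blue and *Arntl* and *Clock* red in all DOX and Tb-DOX libraries. For these 5 genes Tb-5 and Tb-6 carry the colors of the treated groups, while Tb-1 to Tb-4 are nearer the Control level. For *Per3*, Tb-1 to Tb-4 are all below the Control mean (−0.487 to −0.266).

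With the tumor alone no member passed the threshold. Between Tb and Control 0 of 10 members were called by edgeR, against 6.28% of all genes. DESeq2 and limma called 0 as well, and 2 members had an unadjusted p under 0.05. These were *Per3*, at 6.21 to 9.06 FPKM in Control and a median of 5.54 in Tb (log2 fold change −0.80 ± 0.32, SE, adjusted p = 0.151), and *Dbp*, at a median of 11.9 in Tb (−0.70 ± 0.33, adjusted p = 0.229). Without Tb-5 and Tb-6 the values were −0.40 (adjusted p = 0.182) and −0.29 (adjusted p = 0.711). The other 8 members had log2 fold changes of −0.57 (*Ciart*) to 0.91 (*Npas2*), and of −0.58 (*Nr1d1*) to 0.55 (*Npas2*) without both libraries.

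Tb-5 was the highest Tb library for *Per1* (23.8 FPKM), *Cry1* (9.70), *Cry2* (10.9), *Nr1d1* (21.5) and *Arntl* (2.58), and the lowest for *Per3* (0.66) and *Dbp* (3.29). Tb-6 was next to it for *Per3* (2.82), *Dbp* (3.89) and *Arntl* (1.65), but was inside the range of Tb-1 to Tb-4 for *Per1* (9.12) and *Cry2* (4.97). The same 2 libraries had the highest summed neutrophil markers, 6464 FPKM in Tb-5 and 7226 in Tb-6, against 773.6 to 2994 in Tb-1 to Tb-4, and the lowest summed cardiomyocyte markers, 15880 and 16490 against 17490 to 18360. The part of either in the clock levels was not tested.

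Among DOX-treated hearts, *Per1*, *Cry2* and *Ciart* were lower with a tumor than without. Between Tb-DOX and DOX 3 of 10 members were called, all lower, against 17.5% of all genes called and 7.94% called lower, and for the same 3 the FPKM ranges did not overlap, as for 15.8% of all genes. This comparison and that of DOX with Control share the DOX libraries. *Per1* was at 13.99 to 35.1 FPKM in DOX and at 5.34 to 11.6 in Tb-DOX, with a log2 fold change of −1.62 ± 0.33 (SE, adjusted p = 0.00194). *Cry2* was at 6.96 to 11.4 FPKM in DOX and 4.27 to 5.89 in Tb-DOX (−0.91 ± 0.21, adjusted p = 0.00516). *Ciart*, the member with 3 E-boxes in the window shown above, was at 2.98, 5.99, 6.15, 11.6 and 3 FPKM in DOX and at 2.89, 2.04, 1.57, 2.27 and 1.13 in Tb-DOX (−1.78 ± 0.41, adjusted p = 0.0045). The gap between the groups was narrow for *Ciart*, with DOX-1 and DOX-5 just above Tb-DOX-1. The 3 calls held when any 1 library was left out, and the exact permutation test gave p = 0.00794 for each, the smallest it allows.

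The members that were lower in DOX than in Control did not pass between both treated groups. *Dbp* was at 3.91 to 5.94 FPKM in DOX and 2.20 to 5.41 in Tb-DOX (log2 fold change −0.49 ± 0.36, SE, adjusted p = 0.354), and *Per3* at 1.92 to 3.18 and 2.49 to 4.26 (0.15 ± 0.34, adjusted p = 0.791). *Per2* (−0.43, adjusted p = 0.0552), *Nr1d2* (−0.48, adjusted p = 0.0742) and *Cry1* (−0.45, adjusted p = 0.0987) came closer to the threshold, and *Nr1d1* was at −0.70 (adjusted p = 0.223) and *Npas2* at 0.08 (adjusted p = 0.926). Without Tb-5, 6 members were called, against 24.9% of all genes, with *Cry1* (adjusted p = 0.00789), *Per2* (adjusted p = 0.0427) and *Nr1d1* (adjusted p = 0.0462) added at the same fold changes. Without Tb-5 and Tb-6, 7 were called, against 26.3%, with *Nr1d2* added (adjusted p = 0.04).

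*Arntl* was at 0.97 to 2.73 FPKM in Tb-DOX, overlapping DOX (log2 fold change −0.76 ± 0.57, SE, adjusted p = 0.377), and *Clock* was at −0.22 (adjusted p = 0.336). Of the 16 other clock genes tested *Rora* (−0.48, adjusted p = 0.0263) and *Tef* (−0.71, adjusted p = 0.0262) were lower in Tb-DOX. *Timeless*, of DNA replication and checkpoint control, was higher (0.89, adjusted p = 0.0124), where 17.5% of all genes were called. The calls of *Rora* and *Tef* each held in 17 of 21 fits with 1 library left out. Of the 19 output genes 5 fell and none rose, where 7.94% of all genes fell, with *Klf9* (−0.86 ± 0.17, SE, adjusted p = 0.00118), *Usp2*, a deubiquitinase (−0.60 ± 0.13, adjusted p = 0.00343), *Sgk1*, a kinase induced by corticosteroids (−1.17 ± 0.32, adjusted p = 0.0157), and *Coq10b* (−0.69 ± 0.21, adjusted p = 0.0273) the 4 with the smallest adjusted p. Of the 10 glucocorticoid-responsive genes 2 fell and none rose, *Klf9* and *Sgk1*, which stand in both lists.

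The difference between the effects of DOX with and without a tumor was tested as an interaction. It was called for *Per1* (−1.72 ± 0.45 on the log2 scale, SE, adjusted p = 0.0267) and *Cry2* (−1.15 ± 0.29, adjusted p = 0.0233), 2 of 10 members against 8.95% of all genes, and both calls held with any 1 library left out. *Per1* was not called with limma on log2(FPKM + 0.1) (adjusted p = 0.0555) or log2(FPKM + 1) (adjusted p = 0.0535), nor with the replicate number as a block (adjusted p = 0.0645). DOX went with higher *Per1* without a tumor (log2 fold change 1.39) and not with one (−0.33), and the same held for *Cry2* (0.93 and −0.22). Without Tb-5, the Tb library in which both were highest, the interaction was smaller, at −1.22 for *Per1* (adjusted p = 0.0115) and −0.86 for *Cry2* (adjusted p = 0.00671). They were again the 2 called without Tb-5 and Tb-6, against 7.32% of all genes, at −1.17 (adjusted p = 0.0196) and −0.90 (adjusted p = 0.00721). *Cry1* was at −0.76 (adjusted p = 0.063), and passed with DESeq2 (−0.78, adjusted p = 0.0338) and without DOX-1 (−0.85, adjusted p = 0.041).

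The other members did not pass. *Cry1* without Tb-5 was at −0.53 (adjusted p = 0.0511). With all libraries the interaction was −1.22 for *Ciart* (adjusted p = 0.149), 0.95 for *Per3* (adjusted p = 0.177) and −0.83 for *Npas2* (adjusted p = 0.426), and −2.24 for *Arntl* (adjusted p = 0.0863), which is no member. It was, without both libraries, −1.25 for *Ciart* (adjusted p = 0.173), 0.55 for *Per3* (adjusted p = 0.0893), −0.47 for *Npas2* (adjusted p = 0.718) and −0.62 for *Arntl* (adjusted p = 0.549), and for *Arntl* it was −1.47 (adjusted p = 0.181) without Tb-5 alone. For *Dbp* the interaction was 0.21 ± 0.48 (SE, adjusted p = 0.807), with falls in both states (−1.49 and −1.29), and −0.20 (adjusted p = 0.755) without both libraries. Of the 19 output genes 2 were called, *Klf9* (−0.78 ± 0.23, SE, adjusted p = 0.0389) and *Coq10b* (−0.97 ± 0.29, adjusted p = 0.0397), both negative, where 8.95% of all genes were called, and *Klf9* was the 1 called of the 10 glucocorticoid-responsive genes. With 1 library left out *Klf9* was called in 8 of 21 fits and *Coq10b* in 10. Without Tb-5 the output genes called were *Coq10b* (−0.77, adjusted p = 0.0429) and *Usp2* (−0.58, adjusted p = 0.046), where 1285 of 13988 genes were called. Without Tb-5 and Tb-6 they were *Coq10b* (−0.91, adjusted p = 0.0111), *Usp2* (−0.68, adjusted p = 0.0159) and *Pdk4* (−2.20, adjusted p = 0.0346), against 7.32% of all genes. *Klf9* was called in neither (adjusted p = 0.0519 and 0.0558).

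The ratio of *Arntl* to *Dbp* FPKM was taken in each library. Both genes were chosen after their opposite changes were seen, so the ratio describes these 2 genes and not the loop as a whole. Of the other *Per*, *Cry* and *Nr1d* genes, *Per1*, *Cry1* and *Cry2* were higher in DOX than in Control and *Per3* was lower. *Per2*, *Nr1d1* and *Nr1d2* did not pass. The ratio was 0.00781, 0.0187, 0.023, 0.0058 and 0.0788 in Control-1 to Control-5 and 0.324, 0.35, 0.67, 0.842 and 0.561 in DOX-1 to DOX-5. In Tb-1 to Tb-4 it was 0.0125 to 0.0452, in Tb-5 0.784 and in Tb-6 0.424, and in Tb-DOX it was 0.203 to 1.12. All DOX and Tb-DOX libraries, Tb-5 and Tb-6 were at 0.203 or more and the other 9 libraries at 0.0788 or less.

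**Figure D4:**
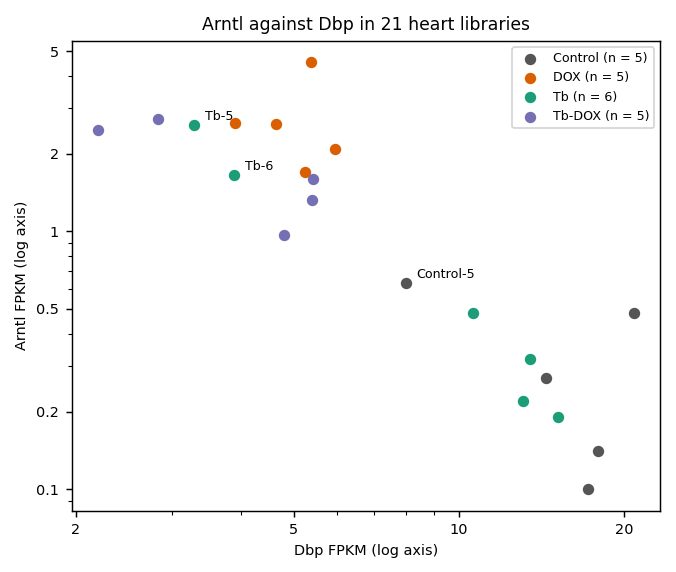
*Arntl* FPKM against *Dbp* FPKM in the 21 heart libraries, both on log axes, 1 point per library colored by group. Control and Tb-1 to Tb-4 lie at the lower right, DOX and Tb-DOX at the upper left together with Tb-5 and Tb-6, and Control-5 is the Control point nearest to them.

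Within groups, after the group means of log2(FPKM + 0.1) were subtracted, *Arntl* and *Dbp* were inversely related over the 21 libraries (Pearson r = −0.836, permutation p = 0.00082, adjusted p = 0.00246, Spearman rho = −0.749, permutation p = 0.00259, adjusted p = 0.00777, over 3 pairs of genes tested). Without Tb-5 and Tb-6, the libraries farthest from the median of *Arntl*, r was −0.704, and it was −0.586 (permutation p = 0.0279, adjusted p = 0.0838, n = 19) when the group means were taken again without them. After adjustment the relation was then no longer past the threshold, so the adjusted call depends on these 2 libraries, while r stayed negative. With any 1 library left out, r was −0.906 to −0.762. The relation of *Arntl* did not pass the threshold for *Nr1d1* (r = 0.414, permutation p = 0.141, adjusted p = 0.192, rho = 0.256, permutation p = 0.292, adjusted p = 0.292, r = 0.131 without both libraries and −0.0596 with the group means taken again) or for *Npas2* (r = 0.268, permutation p = 0.192, adjusted p = 0.192, rho = 0.314, permutation p = 0.168, adjusted p = 0.252, r = 0.172 and 0.105).

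The spans of several members, from gene start to gene end, overlap that of a neighbour. In GRCm39, the build named for the table, *Dbp* (chr7:45354512-45359627, plus strand) overlaps *Sphk2* on the opposite strand (mean 2.49 FPKM), *Nr1d1* (chr11:98658758-98666159, minus strand) overlaps *Thra* (10.6 FPKM), *Ciart* (chr3:95785815-95789563, minus strand) overlaps *C920021L13Rik* (1.31 FPKM) and *Cry2* (chr2:92233991-92264388, minus strand) lies over *D930015M05Rik* (0.477 FPKM). *Per3* (chr4:151088109-151129122, minus strand) lies within the span of *Camta1* on the same strand (9.45 FPKM), and *Npas2* (chr1:39232812-39402317, plus strand) spans 2 predicted genes at or below 0.129 FPKM. These spans include introns, and overlap of exons was not examined. The use of strand in counting is not stated in the sources used here. Where exons overlap, reads of partners on opposite strands therefore cannot be told apart. *Per1* (chr11:68986043-69000786, plus strand), *Per2* (chr1:91343704-91387046, minus strand), *Cry1* (chr10:84967564-85020928, minus strand) and *Nr1d2* (chr14:4230569-4265642, plus strand) overlap no other gene of the table.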

How the data were processed

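Total RNA was extracted from 21 mouse hearts, mRNA was enriched with oligo(dT) beads according to the paper (the labels give oligo(dT) or rRNA depletion), and libraries were sequenced on an Illumina platform. Adapters were trimmed by the authors with Cutadapt, and the submitters' processing notes also name FastQC, HISAT2, HTSeq 0.6.1, DESeq2 1.34.0 and the build GRCm39. The table that the authors deposited gives each gene 2 values per library, a raw read count and an FPKM. In 100% of values the deposited FPKM could be recomputed from the count, the gene's length and the library's total (tolerance 0.005). Groups and replicate numbers came from the sample titles, and all columns were mapped.

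The count test was the quasi-likelihood F test of edgeR 4.0.16 (R 4.3.3), TMM-scaled, on 13988 genes whose FPKM averaged 0.5 or more over the 21 libraries, with the 4 groups in a single fit. Benjamini-Hochberg adjustment covered all of them, and a gene was called at an adjusted p under 0.05. The SE is the fold change divided by the root of F. Log2 fold changes come from this fit, and levels are FPKM. The exact permutation tests of single genes were two-sided on log2(FPKM + 0.1), and the relations of *Arntl* used 100000 permutations within groups. Motifs were searched in RefSeq promoter windows. The steps were tested on simulated counts.

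The members, gene lists, comparisons and rule for names were chosen with earlier results of these data known. The rule names all members, any other clock gene above the limit, and per comparison the 4 output and glucocorticoid-responsive genes with the smallest adjusted p among those called. Some clock genes are not reported here. Alternatives were other scalings, DESeq2 1.42.0, limma 3.58.1 on log2(FPKM + 0.1) and log2(FPKM + 1), other filters, only the groups compared, robust moderation, stricter calls, the replicate number as a block, each library left out in turn and, added after the data were seen, both Tb-5 and Tb-6 left out, and list counts without genes under the limit in the reference group.

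Replicates of a group differed by more than counting error (chi-square per degree of freedom of at least 5.95). Nothing in the labels ties libraries to separate mice beyond their titles, so p-values measure the spread between these libraries. Same-numbered libraries of different groups correlated at −0.187 to 0.144 after group means were removed, so the numbers were not taken as pairs.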

Additional observations from a re-analysis of the deposited data

Results flagged for a closer look

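In groups of 4 to 10 libraries, a value was picked out where its gap to the nearest other library was too large a share of the group's range by Dixon's 95% limit. Of 104 groups (26 clock genes in 4 groups) this picked 12 values, and chance gives about 1 in 20. Of the 12, 9 were in Tb-5: *Per1* at 23.8 FPKM (next 9.53), *Cry1* at 9.70 (next 5.86), *Cry2* at 10.9 (next 5.84), *Nr1d1* at 21.5 (next 6.55), *Nfil3* at 32.9 (next 12.5), *Bhlhe40* at 45.3 (next 15.5) and *Fbxw11* at 15.0 (next 11.3) were the highest of Tb, and *Btrc* at 0.44 (next 0.72) and *Cipc* at 10.01 (next 16.8) the lowest. The other 3 were *Bhlhe40* in DOX-4 at 21.4 FPKM (next 8.68), *Csnk1e* in Control-3 at 7.03 (next 5.37) and *Btrc* in Tb-DOX-3 at 0.63 (next 0.77). The cause of the separation of Tb-5 was not tested.

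The effect of DOX differed between tumor-bearing and non-tumor-bearing hearts by the interaction test of edgeR for *Per1* (−1.72 on the log2 scale) and *Cry2* (−1.15), each called in 21 of 21 fits with 1 library left out. *Per1* was not called with limma at pseudocounts of 0.1 and 1 (adjusted p = 0.0555 and 0.0535) or with the replicate block (adjusted p = 0.0645).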

How the results depend on the processing

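Over all alternatives the count of members called stayed at 4 to 7 for DOX against Control (6 with all choices as described; 4 where a mean FPKM of at least 5 leaves out *Per3*, *Ciart* and *Npas2*) and at 0 for Tb against Control. Other counts moved more. For Tb-DOX against Tb it was 1, where 660 of 13988 genes were called. DESeq2 gave 2 (1063 of 13658 genes), as did the replicate block (793 of 13988). The count was 0 with limma at both pseudocounts (420 and 480 of 13988) and at an adjusted p under 0.01. Without Tb-5 and Tb-6 it was 4 (1441 of 13988), and with 1 library left out 0 to 2 (260 to 938 of 13988). For Tb-DOX against DOX (3) it was 5 with DESeq2, 7 without Tb-5 and Tb-6, and 3 to 6 with 1 library left out, the 6 without Tb-5. For the interaction it was 2, where 1252 of 13988 genes were called. DESeq2 gave 3 (2040 of 13116 genes), as did the fit without DOX-1 (1463 of 13988), where *Cry1* was added. limma at both pseudocounts gave 1 (1021 and 948 of 13988). The replicate block also gave 1 (505 of 13988) and left *Per1* at −1.59 (adjusted p = 0.0645). At an adjusted p under 0.01 the count was 0. The replicate numbers pair no libraries by the labels or by their correlations (−0.187 to 0.144).

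No value past the threshold changed sign. Of those that did, *Nr1d1* in Tb-DOX against Tb was 0.0327 with library totals, 0.21 and 0.18 with limma at pseudocounts of 0.1 and 1, 0.0039 at a mean FPKM of at least 5, 0.0369 with the replicate block and 0.61 without Tb-5 and Tb-6, where *Per1* was 0.22, *Cry1* 0.12 and *Cry2* 0.0371. In Tb against Control *Per1* was −0.066 and −0.0507 with limma and −0.45 without both libraries, *Cry2* −0.0015 without them, and *Nr1d1* −0.14 and −0.12 with limma, −0.14 with the replicate block and −0.58 without both. The interaction of *Dbp* was −0.20 without both. With 1 library left out, Tb-DOX against Tb ranged over −0.45 to 0.18 for *Per1*, −0.19 to 0.11 for *Cry1*, −0.30 to 0.080 for *Cry2* and −0.17 to 0.60 for *Nr1d1*, Tb against Control over −0.41 to 0.22 for *Per1*, −0.0444 to 0.33 for *Cry2* and −0.57 to 0.20 for *Nr1d1*, and Tb-DOX against DOX over −0.20 to 0.38 for *Npas2*. The relation of *Arntl* to *Nr1d1* ranged over r = 0.0287 to 0.559, the highest without Control-5 (permutation p = 0.0317, not adjusted).

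Scaling by library totals put the all-gene median log2 fold change at −0.14 in DOX against Control and at 0.18 in Tb-DOX against DOX, and changed the calls that were higher from 2523 of 5071 to 1419 of 4952 and from 1332 of 2442 to 2535 of 2858. *Npas2* rests on 5 to 95 counts per library. The causes of these changes were not tested.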
